A study of Sus scrofa with 8 samples.

Results

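The probe sets of splicing factors and heterogeneous nuclear ribonucleoproteins (hnRNPs) were compared between pig oviducts that held X-bearing and Y-bearing spermatozoa. Members were picked by gene symbol, under a rule written with earlier results of these data known. A probe set was taken when its only symbol in the platform annotation began with SRSF or SFRS and a digit, HNRNP or HNRP, SF3A or SF3B, SNRP, PRPF or U2AF. The rule found 56 genes, read by 88 of the 24123 probe sets of the Affymetrix Porcine array. In all, 10099 probe sets of 6765 genes had a single symbol. A probe set is a group of short probes read together as 1 signal. Of the 56 genes, 37 had 1 probe set and 19 had several, so the 88 probe sets are not independent of each other. Where a gene had several, they are lettered from A by falling mean signal.

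Splicing removes introns from a new transcript and joins its exons. It is carried out by the spliceosome, a machine built from small nuclear ribonucleoproteins (snRNPs, each a small RNA with its proteins) and many further factors. Which exons are kept depends on regulators that bind the transcript. SR proteins mostly promote the use of nearby exons, and hnRNPs often oppose it, while U2AF and the SF3A and SF3B complexes mark the acceptor end of an intron. All of these are needed in nearly every cell, the epithelium of the oviduct included.

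The study asked whether the oviduct responds differently to the 2 kinds of spermatozoa before ovulation. Sows were weaned Landrace × Large White crossbreds in oestrus, and both groups came from the same 4 animals. In each sow, 1 oviduct received flow-sorted X-spermatozoa and the opposite one Y-spermatozoa by laparoscopy, with the uterine horns closed by staples. Semen came from fertile boars and was stained with a DNA dye for sorting in both groups. Mucosal cells were scraped from each oviduct 24 h later, and each oviduct gave 1 array. There were 4 X-spermatozoa arrays (X1 to X4) and 4 Y-spermatozoa arrays (Y1 to Y4), numbered by biological replicate. Equal numbers were taken as the 2 oviducts of 1 sow, which the labels do not state. Every oviduct held sorted spermatozoa, so a difference is between the 2 kinds and not against an oviduct without any. In such a scraped sample, fewer cells of a type and less RNA per cell cannot be told apart.

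Signals below are those deposited by the authors, on a linear scale. Differences are Y-spermatozoa minus X-spermatozoa on the log2 scale after quantile normalization, from limma over the 23999 probe sets tested, and are called here at an unadjusted two-sided p under 0.05. A sow count uses the same normalized values. Signals are not compared between probe sets as levels of RNA, since probes differ in brightness. The background level, taken from 81 probe sets without a pig target, averaged 11.1 on X-spermatozoa and 9.5 on Y-spermatozoa arrays. Above background means here that each group mean lay above the level of its own group, which held for 85 of the 88 splicing probe sets. Epithelial markers were bright (6 of 6 measured genes above background, led by the oviduct glycoprotein OVGP1), with a summed signal of 13654.5 to 16237.9 on X-spermatozoa and 16385.2 to 17076.2 on Y-spermatozoa arrays. Smooth muscle markers (5 of 5 above background) summed to 1648.9 to 4642.0 and 1143.4 to 3836.6. Of 6 leukocyte markers measured, 2 had both group means above background (not CD79B, CD3D, PTPRC and CD14, although CD3D and PTPRC averaged 12.6 and 11.6 with Y-spermatozoa), and all of them summed to 61.8 to 87.5 and 69.7 to 123.3. The ciliated cell marker TEKT1 read 259.2 to 408.2 and 288.2 to 493.8, and 2 erythrocyte markers summed to 206.2 to 254.4 and 205.8 to 237.6. Of 6 sperm and germ cell markers, ACR, PRM1, ODF1 and DDX4 had mean signals below background in both groups, and the sums were 41.9 to 54.7 and 35.7 to 44.5. The deposited epithelial sums of the groups did not overlap, mostly through OVGP1 (mean 7158.8 against 8673.7), while the other sums did. After normalization OVGP1 differed by 0.02 and the epithelial probe sets by -0.01 to 0.19, with 0 called. Quantile normalization gives the brightest probe sets, OVGP1 among them, nearly the same value on every array. The 0.02 therefore cannot show whether OVGP1 differed. PTPRC was called higher with Y-spermatozoa, PRM1 (below background on 8 of 8 arrays) higher and DDX4 (below background on 8 of 8 arrays) lower. The part of these cells in the results below was not tested.

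The splicing genes differed little between the oviducts. Of the 88 probe sets 1 was called, a probe set of SRSF10 that was lower with Y-spermatozoa, and 0 were called higher. That is 1.14%, where 3.56% of all probe sets were called (1.62% higher and 1.94% lower). After Benjamini-Hochberg adjustment over all probe sets 0 members passed (every adjusted p was 1), as did 0% of all probe sets. With the sow as a block 1 member passed the unadjusted threshold, again that SRSF10 probe set, against 5.09% of all. The differences of the members had a median of 0.04, beside 0.00 for all probe sets, and 55 were above 0 and 33 below. They ran from -0.52 to 0.25 for the 85 above background, and to -0.95 (PRPF38B) and 0.45 (HNRNPUL1) with the 3 that were not. Over the alternatives given at the end, 41 to 63 differences were above 0.

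**Figure D1:**
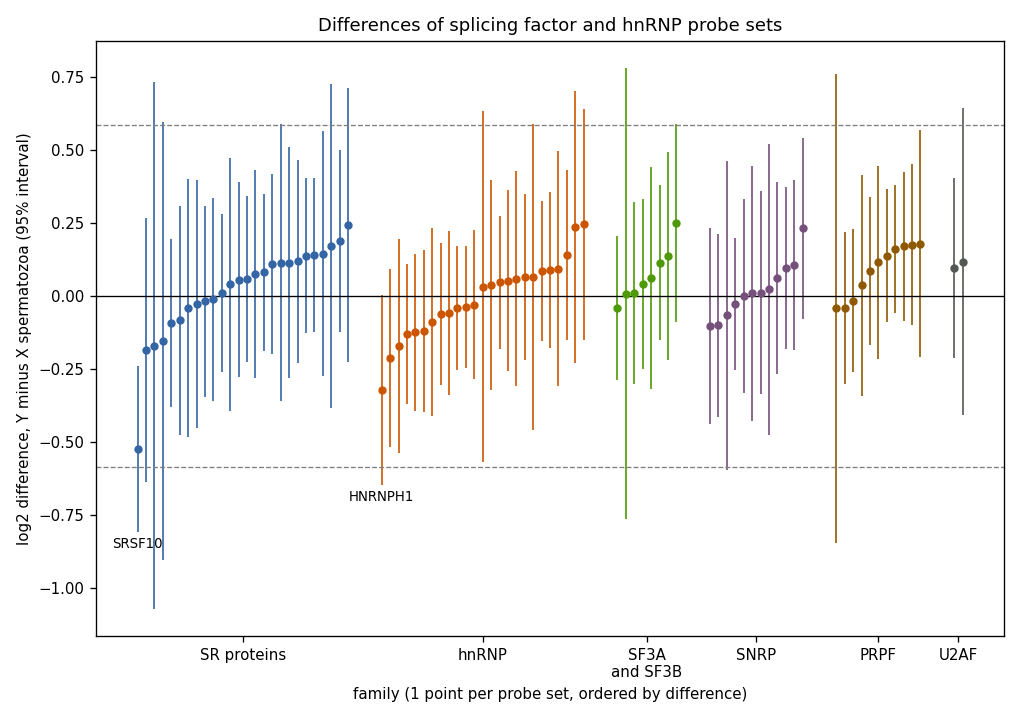
Log2 difference (Y-spermatozoa minus X-spermatozoa, 4 arrays each) of 84 splicing probe sets with its 95% interval from limma, ordered within each family; 4 probe sets with at least 4 arrays below background are left out, and dashed lines mark 1.5-fold either way. Most points lie near 0, and only the interval of 1 SRSF10 probe set lies wholly to one side of it.

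In the limma fit without a block or covariate, the data also bounded how far most members could differ. The share of such intervals was not computed under the alternatives. The 95% interval of the difference lay within 1.5-fold either way (0.58 on the log2 scale) for 67 of the 88 probe sets, or 76.1%. Of all probe sets 42.2% had such an interval, and of those above background 56.3%. These sets differ in brightness, with a median signal of 210.7 for the members, 40.4 for all probe sets and 75.45 for those above background. The part of brightness in these shares was not tested. The median standard error was 0.14 for the members, 0.22 for all probe sets and 0.18 for those above background. Intervals as narrow as these leave room for changes under 1.5-fold and say nothing of which exons were joined, because an array signal is not a measure of splicing.

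SRSF10 is an SR protein known for repressing splicing when it is dephosphorylated, as after heat shock. It had 5 probe sets, and they did not move together. Probe set C read 130.2, 121.1, 125.1 and 154.2 on arrays X1 to X4 and 92.3, 97.0, 82.1 and 94.9 on Y1 to Y4. The groups did not overlap, which held for 1.17% of all probe sets in this direction, and the signal was lower with Y-spermatozoa in 4 of 4 sows. The difference was -0.52 (SE 0.12, 95% interval -0.81 to -0.24), or 0.696-fold, with an unadjusted p of 0.00300 and an adjusted p of 1 in limma. With the sow as a block the unadjusted p was 0.00566.

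The other SRSF10 probe sets showed no such gap. Probe set A read 314.2, 348.8, 321.9 and 315.1 with X-spermatozoa and 347.8, 396.6, 329.5 and 304.3 with Y-spermatozoa (0.08, 95% interval -0.19 to 0.35). Probe set B read 151.2, 181.9, 159.3 and 126.0 against 198.9, 186.4, 147.0 and 137.7 (0.11, -0.28 to 0.51). For both, the groups overlapped and 3 of 4 sows were higher with Y-spermatozoa. Probe set D read 103.1, 84.1, 76.1 and 78.5 against 85.1, 109.8, 92.1 and 65.0 (0.04, -0.39 to 0.47), higher in 2 of 4 sows. The last, probe set E, was below background on all 8 arrays, at 0.4 to 3.2, so no fold is given. None of the intervals of probe sets A, B and D reached the -0.52 of probe set C. The interval of probe set C itself (-0.81 to -0.24) overlapped those of B and D, but not that of A.

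**Figure D2:**
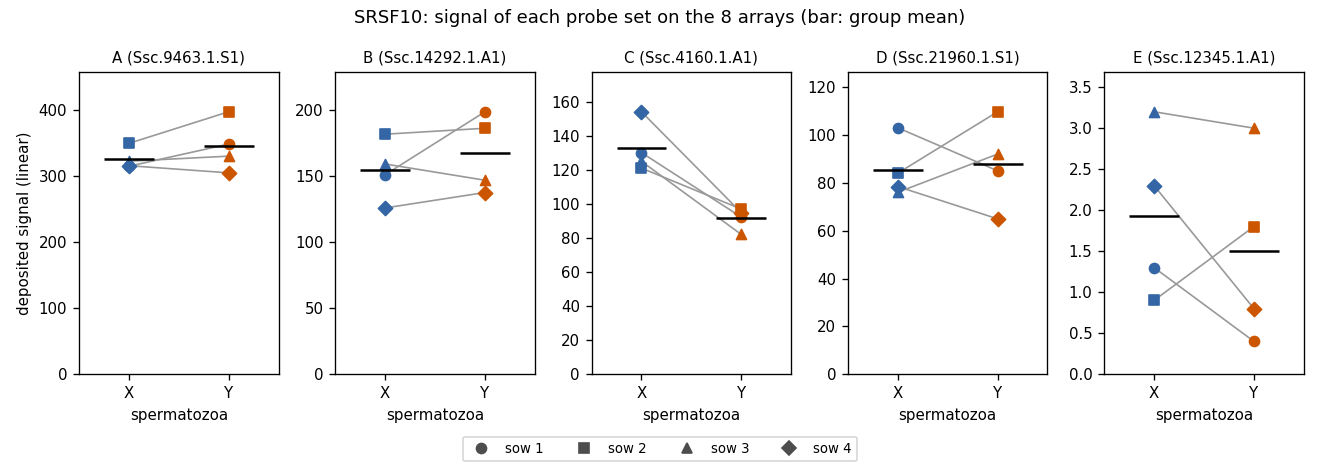
Deposited linear signal of the 5 SRSF10 probe sets on the 8 arrays, each panel with its own axis from 0; grey lines join the oviducts of a sow and black bars are group means. Only probe set C has all 4 Y-spermatozoa arrays (82.1 to 97.0) below all X-spermatozoa arrays (121.1 to 154.2), and probe set E is below background.

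The disagreement between SRSF10 probe sets was then described by ratios, a comparison chosen after the values were seen. Probe set C was picked for its own difference, and that difference enters its ratio. The ratio therefore largely repeats it and gives no independent support. For every gene with several probe sets above background (1642 genes, 3873 probe sets), each probe set was divided by the mean of the others of its gene. The log2 ratio of probe set C to the 3 other SRSF10 probe sets averaged -0.29 with X-spermatozoa and -0.89 with Y-spermatozoa. It was -0.38, -0.53, -0.34 and 0.08 on X1 to X4 and -0.96, -1.05, -1.01 and -0.55 on Y1 to Y4, lower in 4 of 4 sows. The groups did not overlap, although Y4 at -0.55 came close to X2 at -0.53. The difference of -0.60 (SE 0.18) had an unadjusted p of 0.00828 in limma and an adjusted p of 0.986. Of the 47 splicing probe sets in this fit (18 genes) 1 passed the unadjusted threshold, beside 3.67% of all, and 0 passed after adjustment. Which stretch of the transcript each probe set reads was not analysed here.

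The hybridisation controls are sequences spiked into every sample before hybridisation. After quantile normalization, their mean log2 signal was 9.73 ± 0.07 on X-spermatozoa and 9.94 ± 0.10 on Y-spermatozoa arrays (SD, n = 4). The exact two-sided permutation p was 0.0571, or 0.171 after adjustment over 6 technical measures. The smallest p that 4 against 4 allows is 0.0286. With the normalized mean of the controls as a covariate, the difference of SRSF10 probe set C was -0.45 (SE 0.23) with a p of 0.0921 in limma. That of its ratio was -0.59 (SE 0.33) with a p of 0.111 in limma. The controls read 9.65 to 9.82 on the X-spermatozoa arrays and 9.82 to 10.06 on the Y-spermatozoa arrays. In such a fit this measure and the kind of spermatozoa can hardly be told apart. The part of hybridisation in the difference was not tested further.

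The other SR proteins showed no called difference. The family had 27 probe sets of 11 genes, of which 16 differences were above 0 and 11 below, with a median of 0.06. SRSF1, which binds exonic enhancers and is among the best known SR proteins, had 3 probe sets with differences of 0.11 to 0.14. Probe set B was higher in the Y-spermatozoa oviduct of all 4 sows (230.7, 203.3, 225.7 and 243.7 against 234.1, 227.7, 254.8 and 278.9, difference 0.14, p of 0.260 in limma), with overlapping groups. SRSF2, another enhancer-binding SR protein, read 647.8, 831.5, 879.5 and 827.0 against 1004.9, 935.4, 835.1 and 891.1 (0.19, p of 0.198 in limma). X1 was low and Y1 high, and the other arrays overlapped.

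SRSF6 was read by 6 probe sets, all above background, with differences from -0.17 to 0.24. Probe set A read 945.6, 904.0, 965.0 and 1177.5 with X-spermatozoa and 1602.7, 984.6, 1182.9 and 1017.9 with Y-spermatozoa (0.24, p of 0.264 in limma). Its mean rested on Y1, which stood above every other array. SRSF11 had 5 probe sets between -0.03 and 0.17. SRSF12, a close relative of SRSF10, was the other member of the family that was lower with Y-spermatozoa in 4 of 4 sows (64.9, 64.2, 66.4 and 86.4 against 63.1, 54.7, 62.2 and 83.0), but by only -0.08 (SE 0.17). SRSF3 and SRSF7, which also help to export mRNA from the nucleus, differed by 0.06 each. SRSF4, SRSF5 and the 2 probe sets of SRSF9 lay between -0.19 and 0.15.

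The hnRNPs coat new transcripts and shape splicing, export and stability. Their 26 probe sets (17 genes) held 14 differences above 0 and 12 below, with a median of 0.04, and 0 were called. HNRNPH1 and HNRNPF, which bind runs of G in RNA, were the 2 with the smallest p. HNRNPH1 read 1583.9, 1389.2, 1659.0 and 1795.5 on X1 to X4 and 1521.0, 1320.7, 1221.9 and 1334.2 on Y1 to Y4. It was lower with Y-spermatozoa in 4 of 4 sows, but Y1 lay above X2, so the groups overlapped. The difference was -0.32 (SE 0.14, 95% interval -0.65 to 0.00), with a p of 0.0514 in limma and 0.0617 with the sow as a block. It passed the unadjusted threshold under 8 of 25 alternatives, with a p as low as 0.0180. HNRNPF read 2244.3, 2171.6, 2089.3 and 2148.5 against 2063.8, 1778.9, 2062.1 and 1973.6. The deposited signals did not overlap, but the normalized ones did, and the difference was -0.21 (SE 0.13, p of 0.148 in limma). HNRNPH2, of the same subfamily, had 2 probe sets at -0.12 and -0.09, and HNRNPH3 was at 0.24 (SE 0.20).

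Probe sets of 1 hnRNP gene often lay on both sides of 0. HNRNPA2B1, known for binding RNA that is transported or packed into exosomes, had 3 probe sets at -0.13, -0.06 and 0.25. Probe set A, at -0.06, read 2048.1 to 2082.7 with X-spermatozoa and 2066.7 to 2172.7 with Y-spermatozoa, so its deposited means ran the other way (2069 and 2103) and quantile normalization turned the sign. HNRNPR was lower with Y-spermatozoa in 4 of 4 sows by probe set A (-0.12) and higher in 4 of 4 by probe set B (0.09). The ratio of the pair differed by -0.21 (SE 0.12), with an unadjusted p of 0.115 in limma. HNRNPC, HNRNPD, HNRNPDL, HNRNPK and HNRNPUL1 each also had 1 probe set above 0 and 1 below, and that of HNRNPUL1 with the difference of 0.45 (probe set B) was below background on 6 arrays. HNRNPA1, the classic silencer of exons, differed by 0.06 (SE 0.16), HNRNPM by 0.09 (SE 0.10, higher in 4 of 4 sows) and HNRNPU by 0.09 (SE 0.17).

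The factors that mark the acceptor end of introns were 8 probe sets of SF3A and SF3B genes and 2 of U2AF genes. None was called, 9 of the 10 differences were above 0, and the medians were 0.05 and 0.11. SF3B1, the subunit that clasps the branch site and is often mutated in leukaemias, read 1748.5, 1695.5, 1773.8 and 1530.8 against 2143.0, 1737.9, 1868.1 and 1559.1 on probe set A (0.06, SE 0.16) and differed by 0.14 (SE 0.15) on probe set B. SF3B5, a small subunit of the same complex, had the largest difference of these, at 153.5, 203.3, 166.8 and 202.6 against 201.8, 251.8, 206.0 and 201.1 (0.25, SE 0.15, p of 0.128 in limma). X2 and X4 reached the level of 3 of the Y-spermatozoa arrays, and 3 of 4 sows were higher with Y-spermatozoa. U2AF2, which binds the pyrimidine tract before the acceptor site, was at 31.1 ± 3.20 and 32.2 ± 4.15 (SD, n = 4), and U2AF1L4 at 53.9 ± 13.9 and 56.8 ± 12.0.

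The snRNP proteins (13 probe sets, 10 genes) had a median difference of 0.01, and 0 were called. They include the Sm proteins, which form the ring around each small nuclear RNA. Among these, SNRPB differed by 0.09 (SE 0.12), SNRPD1 by 0.02 (SE 0.21), SNRPD3 by 0.01 (SE 0.15), SNRPF by -0.07 (SE 0.23) and SNRPG by -0.10 (SE 0.14) and 0.01 (SE 0.19) in its 2 probe sets. SNRPN, an imprinted relative of SNRPB, differed by 0.11 on probe set A, with the Y-spermatozoa oviduct higher in all 4 sows, and by 0.00 on probe set B. SNRPA, a protein of the particle that recognises the donor site, had the smallest p of the family. It read 89.5, 117.5, 127.6 and 98.4 against 121.2, 132.6, 126.2 and 120.8 (0.23, SE 0.13, p of 0.125 in limma). The low values were X1 and X4, and X3 was level with the Y-spermatozoa arrays. SNRPB2 was at -0.10 (SE 0.14), SNRPC at 0.06 (SE 0.14) and probe set A of SNRPA1 at -0.03 (SE 0.10).

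The PRPF genes, named for pre-mRNA processing mutants of yeast, had 12 probe sets of 9 genes with a median difference of 0.10, 8 above 0, and 0 were called. PRPF18, PRPF19 and PRPF3 were higher with Y-spermatozoa in 4 of 4 sows. PRPF18, which acts in the second step of splicing, read 171.0, 185.6, 181.3 and 176.3 against 207.8, 201.1, 204.7 and 183.8 (0.16, SE 0.09, p of 0.131 in limma). Only Y4 reached into the X-spermatozoa range. PRPF19, a ubiquitin ligase that helps to activate the spliceosome, read 256.0, 261.5, 225.5 and 214.4 against 264.6, 287.6, 263.5 and 257.4 (0.17, SE 0.11, p of 0.161 in limma), and the groups overlapped at Y4. PRPF3, a protein of the tri-snRNP, read 137.9, 137.6, 128.7 and 133.9 against 184.3, 144.9, 141.1 and 138.4 (0.18, SE 0.12, p of 0.179 in limma). Its groups did not overlap, which held for 0.896% of all probe sets in this direction, but Y4 was within 1 unit of X1. PRPF18 and PRPF39 probe set A (0.14, SE 0.10) passed the unadjusted threshold under 2 alternatives, the methods' t-test without moderation among them (p of 0.0131 and 0.0439). The tri-snRNP proteins PRPF4 and PRPF31 differed by 0.04 (SE 0.16) and 0.18 (SE 0.17), and the kinase PRPF4B by -0.04 (SE 0.11).

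Counted over the families, 9 splicing probe sets (10.2%) were higher with Y-spermatozoa in 4 of 4 sows and 7 (7.95%) lower. Among all probe sets these shares were 6.44% and 6.71%. The higher ones were of HNRNPM, HNRNPR, PRPF3, PRPF18, PRPF19, SNRPA, SNRPN, SRSF1 and SRSF11. The lower ones were of HNRNPA2B1, HNRNPD, HNRNPF, HNRNPH1, HNRNPR, SRSF10 and SRSF12, so 5 of the 7 were hnRNPs. Of the 88 splicing probe sets 26 were of hnRNPs, and 2 of the higher ones were hnRNPs too. HNRNPR was in both lists, by different probe sets. Differences of the 5 lower hnRNP probe sets ran from -0.32 (HNRNPH1) to -0.04 (HNRNPD). Whether hnRNPs were lower more often than other members was not tested.

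In other genes of the pathway few differences were called, where 3.56% of all probe sets were called. Of 64 probe sets of other spliceosome genes (42 genes) 0 were called, with a median of -0.00. With the sow as a block 1 of them passed the unadjusted threshold, where 5.09% of all probe sets did. This was a probe set of the helicase DDX46 that was lower with Y-spermatozoa in 4 of 4 sows. It read 94.3, 77.7, 54.5 and 61.7 against 93.3, 51.1, 38.4 and 43.5 (-0.39, block SE 0.13, p of 0.0382 with the block and 0.249 without in limma), while the other DDX46 probe set differed by 0.15 and was higher in 4 of 4 sows. Of 16 probe sets of the SMN complex and Sm protein assembly (11 genes) 0 were called, with a median of -0.05. Of 6 probe sets of kinases and an importer of SR proteins 0 were called, with a median of 0.03. Among 52 probe sets of other splicing regulators (25 genes, median 0.02) 0 were called higher and 1 lower (1.92%). The one called was the dimmest of 4 probe sets of SON, a protein rich in serine and arginine that supports the splicing of weak introns. It read 23.6, 17.4, 19.0 and 16.3 with X-spermatozoa and 12.9, 12.0, 17.2 and 8.0 with Y-spermatozoa, a difference of -0.58 (SE 0.24) with an unadjusted p of 0.0421 and an adjusted p of 1 in limma. These signals lay close to background, and Y3 overlapped the X-spermatozoa arrays. The other SON probe sets differed by -0.24 (SE 0.12), 0.04 (SE 0.09) and 0.04 (SE 0.12).

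A few splicing genes differed between sows, at the unadjusted threshold. In the limma F test between the 4 sows, 6 members (6.82%) had an unadjusted p under 0.05, beside 14.2% of all probe sets, and 0 passed after adjustment. The smallest p belonged to SNRPA1, a protein of the snRNP that pairs with the branch site. Its probe set B read 47.5 and 44.4 in the X-spermatozoa and Y-spermatozoa oviducts of sow 1, 43.7 and 47.5 in sow 2, 7.8 and 2.1 in sow 3 and 0.8 and 0.9 in sow 4 (adjusted p = 0.146, unadjusted p of 0.000643, limma F test). Sows 1 and 2 were well above background and sows 3 and 4 below it, in both oviducts of each. Probe set A of SNRPA1 read 159.8 to 187.9 on the 8 arrays with no such split.

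HNRNPL, which binds CA repeats and regulates exon choice, read 685.2 and 715.5 in sow 1, 353.0 and 377.8 in sow 2, 515.2 and 488.0 in sow 3 and 515.7 and 548.6 in sow 4 (adjusted p = 0.214, unadjusted p of 0.00543, limma F test). Sow 1 was highest and sow 2 lowest, 1.93-fold apart. The other 4 were probe set B of HNRNPDL, lowest in sow 3 (1.63-fold between the highest and lowest sow), probe set A of SRSF11, highest in sow 1 (1.47-fold), SRSF12, highest in sow 4 (1.43-fold), and PRPF4, highest in sow 4 (1.41-fold). Their adjusted p in the limma F test was 0.291 to 0.351. HNRNPDL and SRSF11 had further probe sets that did not pass.

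**Figure D3:**
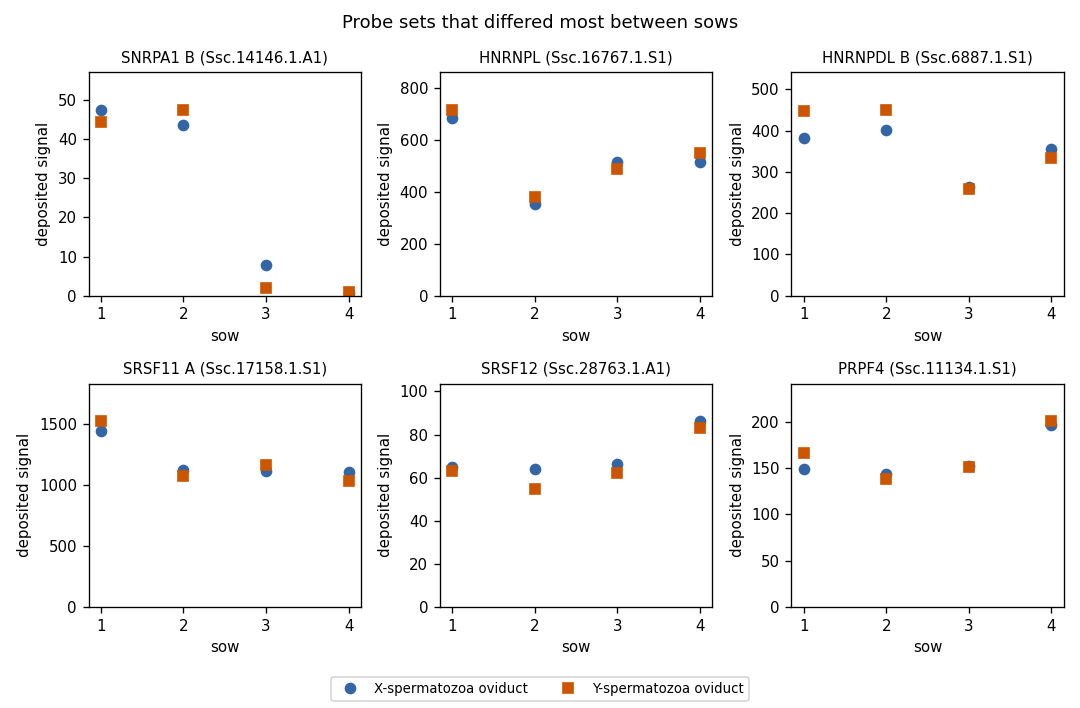
Deposited linear signal of the 6 splicing probe sets with a p under 0.05 between sows, by sow, for the X-spermatozoa (circles) and Y-spermatozoa (squares) oviduct; each axis starts at 0. The panels were chosen by that test, which favours probe sets whose oviducts are alike within a sow. HNRNPL runs from 353.0 and 377.8 in sow 2 to 685.2 and 715.5 in sow 1, while HNRNPDL B has a gap within sow 1 (380.8 and 448.0).

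The highest values of the members were gathered on 2 arrays. Of the 88 probe sets 27 (30.7%) were highest on Y1 and 19 (21.6%) on Y2, where 16.1% and 13.5% of all probe sets were highest. The other 6 arrays held 3 to 10 each. On Y1 stood 11 of the 27 SR protein probe sets and 6 of the 12 of PRPF genes, and on Y2 9 of the 13 of snRNP proteins. The SR protein probe sets on Y1 included several of SRSF6 and several of SRSF11, so they were of fewer genes. The lowest value lay on Y1 for 14 probe sets (15.9%), as on X1, beside 14.4% and 14.5% of all probe sets. Y1 also had the highest ratios of 3′ to 5′ signal of the control genes, a sign of RNA quality. The log2 ratio was 3.06 for actin (2.45 to 2.73 on the other arrays), 2.59 for GAPDH (1.94 to 2.20) and 0.65 for EF1A (0.37 to 0.56). Without Y1, 49 of the 88 differences were above 0, and HNRNPH1, SRSF10 and SRSF5 were called, all lower with Y-spermatozoa. The part of RNA quality in the pattern was not tested.

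**Figure D4:**
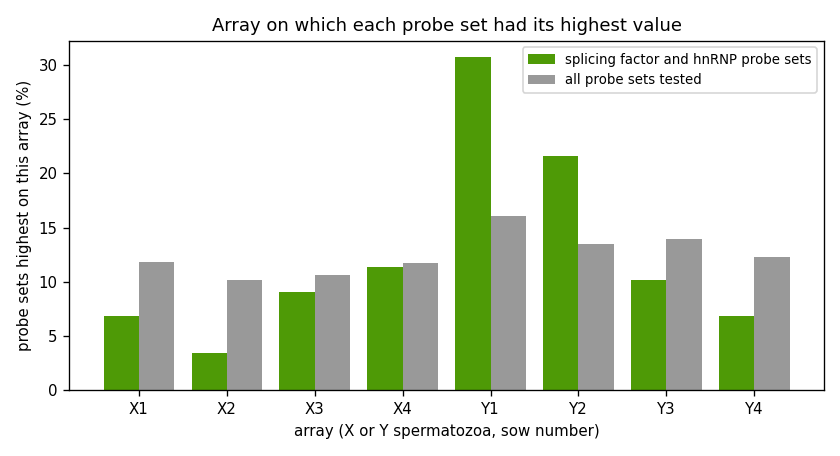
Share (%) of the 88 splicing probe sets (green) and of all 23999 probe sets tested (grey) that had their highest normalized value on each array. The green bars reach 30.7% on Y1 and 21.6% on Y2, above the grey bars of 16.1% and 13.5%.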

How the data were processed

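Affymetrix Porcine arrays of 8 oviducts (4 sows) were analysed. Each deposited value is a linear intensity of 1 probe set, which the authors obtained with MAS5 5.1 (per the submitters' processing notes) and scaled so that every array has a trimmed mean of 100.0. The study's methods describe RMA, for which probe-level values were not used here. All 24123 probe sets were quantile normalized, a floor of 1 was set, and log2 values were formed. The 124 AFFX controls were then left out. Tests were two-sided with limma 3.58.1 (lmFit, eBayes) in R 4.3.3, first tested on simulated data. Python 3.11.15 with matplotlib 3.10.9 drew the figures.

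Arrays were grouped by the labels. Equal replicate numbers were taken to mark a sow, since both oviducts of each sow were used, but the labels do not state this. Within every such pair the deviations from group means correlated over all probe sets (0.13 to 0.19). Over the splicing probe sets without SNRPA1 probe set B the values were 0.45, 0.07, 0.52 and 0.07 in sows 1 to 4. Arrays of unlike numbers were not compared in this way. A fit blocked on sow served as an alternative. The background level of an array is the 95th percentile of 81 probe sets that are neither pig genes nor spiked controls. Symbols come from the platform annotation (198 probe sets with several symbols and 13826 with none were not members). All 56 genes matched the pig gene table by ID. Named by rule were every SRSF10 probe set, called members, the 4 smallest p and 2 highest signals per family, and called genes of the lists, while further members are named where sow counts, the F test or genes with several probe sets are described. Members, lists and marker genes were chosen with earlier results of these data known, the SRSF10 difference included. Alternatives were the sow as a fixed or random block, median centring, the deposited scaling and a pseudocount of 16. Others were only probe sets above the median signal (called bright), a floor at background, a variance trend and a t-test without moderation. The last were a covariate made of the hybridisation controls, and dropping each array or sow. The block joined to another scaling, and the test of probe set ratios, were added after the values were seen. The number of arrays limits the precision.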

Additional observations from a re-analysis of the deposited data

Results flagged for a closer look

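In 6 of 68 groups of 4 arrays (34 probe sets, 2 groups each), 1 array stood apart from the other 3 by Dixon's test, which chance alone does in about 1 of 20 groups. The test used the normalized log2 values, while the values printed here are deposited signals, in which a gap can be smaller. SF3A3 read 447.2 on Y3 against 357.9 to 375.4 on the other Y-spermatozoa arrays, and the X-spermatozoa oviduct of the same sow was as high (447.1 on X3 against 348.2 to 372.1). SF3B1 probe set B read 159.2 on X3 against 148.1 to 150.9 on the other X-spermatozoa arrays. HNRNPH1 read 1521 on Y1 against 1221.9 to 1334.2, PRPF3 read 184.3 on Y1 against 138.4 to 144.9, and SF3B5 read 251.8 on Y2 against 201.1 to 206.0 on the others of the group. PRPF18 read 183.8 on Y4, under the 201.1 to 207.8 of the other Y-spermatozoa arrays. No SRSF10 group was among the 6.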

How the results depend on the processing

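SRSF10 probe set C was lower with Y-spermatozoa under all 25 alternatives (-0.59 to -0.44) and passed the unadjusted threshold in 23, with p from 0.00102 to 0.0985 (0.00474 to 0.00905 without 1 array, and 0.0103 to 0.0266 without 1 sow). It did not pass with the hybridisation controls as a covariate, alone or with the sow as a block (p of 0.0921 and 0.0985 in limma). That covariate nearly followed the kind of spermatozoa. Of the other 33 named probe sets, 21 changed sign in at least 1 alternative. Among all splicing probe sets 55 differences were above 0, which became 63 with median centring, 41 with the covariate and 44 with covariate and block. Their median was -0.005 with the covariate and 0.00 with covariate and block. Counts of splicing probe sets called higher and lower were 0 and 1. They were 0 and 2 with the random block, the pseudocount of 16, only bright probe sets or the trend (HNRNPH1 added). With the floor at background or the t-test without moderation they were 2 and 2 (PRPF18 and PRPF39 too). With the covariate, alone or with the block, they were 0 and 0. Without 1 array or sow, 0 to 2 were higher and 1 to 3 lower, and those added beside HNRNPH1 were HNRNPUL1 without X1, HNRNPK without X2, SRSF5 without Y1, PRPF31 and SRSF11 without sow 1 and SF3B5 without sow 4. Over all probe sets, 389 were higher and 466 lower, and these became 665 and 794 with the random block, 108 and 203 among bright probe sets, 663 and 664 with covariate and block, 271 and 631 with the deposited scaling, and 420 and 877 with that and the block. After adjustment 0 passed, but 1 with the random block or the background floor, 2 with that t-test and 0 to 4 without 1 array. In the pathway lists 0 higher and 1 lower became 0 and 2 with the replicate block under any scaling, 1 and 2 with the random block, 0 and 0 among bright probe sets, 4 and 5 with the background floor, 3 and 2 with that t-test, 0 and 3 with the covariate, 1 and 3 with covariate and block, and 0 to 1 higher and 0 to 2 lower without 1 array or sow. Between sows, 6 splicing probe sets became 3 with median centring, 17 with the pseudocount and 14 among bright ones, where 2 each passed after adjustment (SNRPA1 and HNRNPL, and HNRNPL and HNRNPDL), and 3 to 5 without 1 sow. The replicate block otherwise changed no call among the splicing probe sets. The causes were not tested.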
